A study of Homo sapiens with 6 samples.

Results

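Expression of 8 genes that are recurrently altered in glioblastoma or respond to p53 was followed in U251 cells, an established human glioblastoma cell line, with and without tumor necrosis factor-α (TNF-α). The genes were CDKN2A, CDKN2B, MTAP, NF1, RB1, MDM2, CDKN1A and TERT. They were taken by name from the gene expression table, which listed 58735 genes, and each name was found once. The NC group comprised 3 cultures that received sterile deionized water, and the TNF-α group comprised 3 cultures that received 10 ng/mL of recombinant human TNF-α. Cells of both groups were harvested after 24 h, so that no earlier or later time was examined, and the labels name no genetic change for either group. U251 is a single tumour-derived line grown without immune or stromal cells, and these 6 libraries describe that line alone. Levels are given as FPKM (fragments per kilobase of gene length and unit of library size, as scaled by the authors), and coordinates are on GRCh38 with GENCODE release 29.

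The genes belong to the pathways that restrain growth in glial tumours. CDKN2A and CDKN2B encode the INK4 inhibitors of CDK4 and CDK6, and CDKN2A also encodes ARF, which blocks MDM2. RB1 encodes the pocket protein that CDK4 and CDK6 phosphorylate, NF1 encodes neurofibromin, a GTPase-activating protein for RAS, and TERT encodes the catalytic subunit of telomerase. MDM2 encodes the ubiquitin ligase that degrades p53 and is itself a p53 target, as is CDKN1A, which encodes the CDK inhibitor p21. MTAP lies beside CDKN2A on chromosome band 9p21 and encodes the enzyme that returns methylthioadenosine to the methionine salvage pathway. Deletions of CDKN2A in glioma often take in CDKN2B and MTAP.

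Of the 3 TNF-α libraries, replicates 2 and 3 differed in composition from the remaining 4 libraries. The share of reads in genes over 8 kb was 28.8% to 29.1% in the NC libraries and TNF-α replicate 1, but 16.6% and 17.9% in TNF-α replicates 2 and 3. Ribosomal protein genes took 2.62% to 2.90% of the reads in those 4, and 7.30% and 6.26% in TNF-α replicates 2 and 3. Depth ranged from 31992167 to 37897044 reads in genes. The treatment was visible in every TNF-α library. ICAM1, an adhesion molecule induced through NF-κB, rose from 3.77 ± 0.535 to 64.0 ± 11.6 FPKM (SD, n = 3; log2 fold change 3.76, limma adjusted p = 0.000833), and the NF-κB inhibitors NFKBIA and TNFAIP3 rose by 2.79 and 2.70 on the log2 scale (adjusted p = 0.00415 and 0.0421). The call of NFKBIA was lost without any 1 of the NC libraries (adjusted p up to 0.0615), and that of TNFAIP3 without any 1 of them or TNF-α replicate 3 (up to 0.276). Under all 20 alternatives, ICAM1 was called in 20, NFKBIA in 17 and TNFAIP3 in 10. Of 8 markers of astrocytic glioma lines, 7 passed the filter on low values and S100B had at most 8 reads. GFAP, the astrocyte intermediate filament, fell from 8.24 ± 1.19 to 2.19 ± 0.537 FPKM (log2 fold change -1.54, adjusted p = 0.0210), a call lost without any 1 library other than TNF-α replicate 1 (up to 0.166) and made under 12 of the 20 alternatives. The markers were mixed, with 3 log2 fold changes above 0 and 4 below. VIM, encoding vimentin, was at 343 ± 18.7 and 753 ± 283 FPKM without overlap (log2 fold change 1.05, adjusted p = 0.195). Of 8 markers of leukocytes, endothelium, epithelium and neurons, PTPRC and CD3E were at 0 in all libraries and only SYT1, a synaptic vesicle gene, was tested. Their summed level was 3.58 to 3.84 FPKM in the NC group and 3.65, 1.71 and 2.02 FPKM in the TNF-α group. Nearly all of it was SYT1, at 3.54 to 3.76 FPKM with water and 3.64, 1.60 and 1.93 FPKM with TNF-α.

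CDKN2A and CDKN2B were silent at this depth in both groups. CDKN2A (chromosome 9, 21967753 to 21995301, minus strand) had 1 read in NC replicate 2, which is 0.00704 FPKM, and 0 reads in the other 5 libraries. CDKN2B (chromosome 9, 22002903 to 22009363, minus strand) had 0 reads in all 6. A count of 0 allows up to 3 reads per library, equal to 0.0192 to 0.0285 FPKM for CDKN2A and 0.0205 to 0.0304 FPKM for CDKN2B, as counting error only. No level, and so no difference between the groups, was detectable for either INK4 gene. In bulk RNA, fewer expressing cells and less RNA per cell cannot be told apart, and these files hold no measurement of DNA.

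Genes next to them also had few or no reads. Between MLLT3 and ELAVL2, both included, the table listed 73 genes, of which 38 were at 0 in all libraries and 29 had at least 3 reads in some library. Unread genes were common elsewhere too, since 31662 of all 58735 genes had an FPKM above 0 in at least 1 library. Around CDKN2A, 9 consecutive genes from ERVFRD-3 to RF01909 (chromosome 9, 21929457 to 22121097, a length of 191.641 kb) held 1 read in total over 6 libraries, that of CDKN2A. CDKN2A and CDKN2B were the only protein-coding genes of the 9. The 8 genes at 0 included the antisense transcripts CDKN2A-DT and CDKN2B-AS1, and the protein-coding read-through AL359922.1, which runs from the MTAP promoter across CDKN2A, was at 0 as well. MTAP, which ends at 21937651 and so reaches into the stretch, was the nearest gene with reads on one side, and ERVFRD-3 lies within its span. On the other side the nearest was the long noncoding RNA AL157937.1, starting at 22203990.

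Outside this stretch, other genes of the band were read in both groups. DMRTA1, on the far side, had 566, 503 and 469 reads with water and 498, 191 and 237 with TNF-α. KLHL9, a ubiquitin ligase adaptor on the MTAP side, had 2624, 2438 and 2066 reads against 2143, 548 and 683. In both genes TNF-α replicates 2 and 3 were the low libraries. Over all 6 libraries, the largest totals among the 13 protein-coding genes with at least 3 reads in some library were 25734 for MTAP, 10824 for FOCAD, 10502 for KLHL9, 2741 for MLLT3, 2464 for DMRTA1 and 1859 for ELAVL2. The interferon gene cluster between FOCAD and MTAP was almost empty: IFNE had 243 reads, IFNB1 145, IFNA1 27, IFNA8 14, IFNW1 6 and IFNA5 4, and HACD4 beside the cluster had 82. The 16 genes of other types with at least 3 reads in some library had 4 to 432 in total and were FOCAD-AS1, IFNWP9, IFNA20P, IFNWP2, IFNWP19, MIR31HG, KHSRPP1, RN7SL151P, TUBB8P1, AL359922.2, AL359922.3, AL157937.1, LINC01239, CLIC4P1, AC017067.1 and AL445623.2. Runs of nearly unread genes were not confined to CDKN2A, since 8 consecutive genes of the interferon cluster from IFNA7 to IFNA22P (chromosome 9, 21201469 to 21278619, 77.151 kb) also held 1 read in total.

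**Figure D1:**
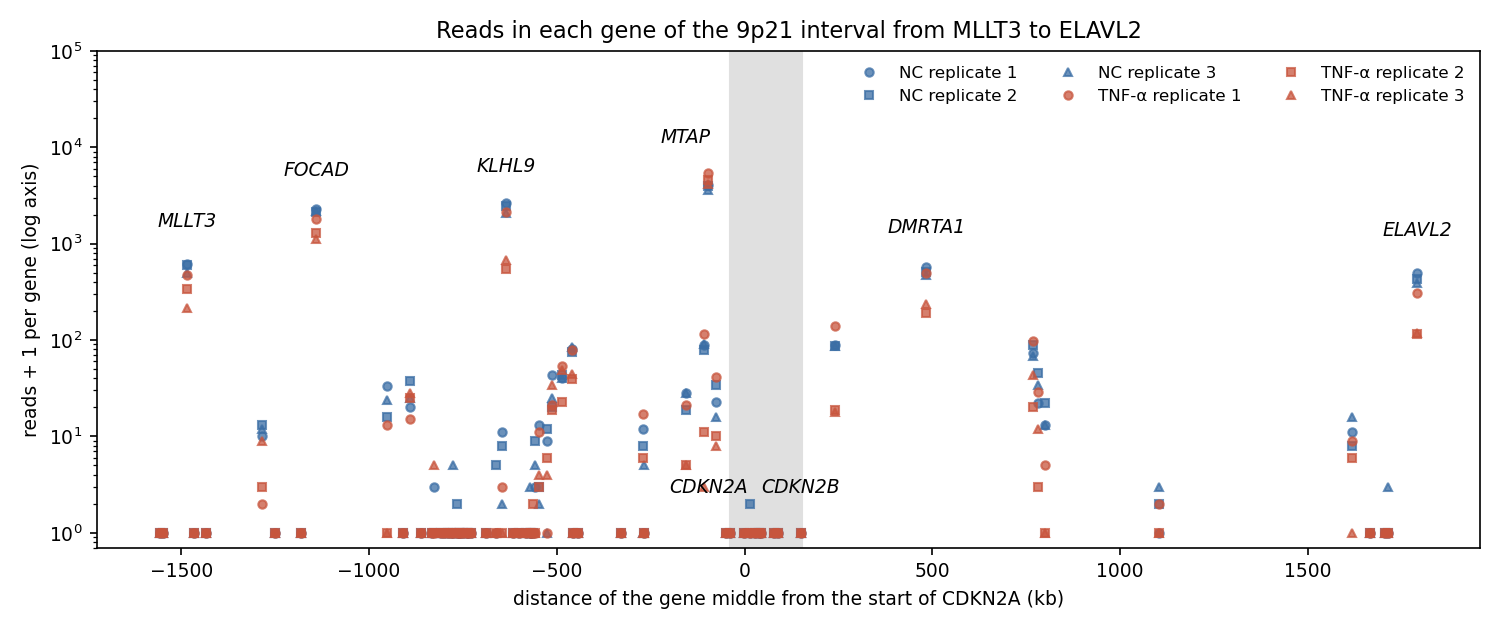
Reads plus 1 (log axis) in each of the 73 genes from MLLT3 to ELAVL2, against the distance in kb of the gene's middle from the start of CDKN2A, with 1 point per library (blue, NC; red, TNF-α). The grey band is the stretch of 9 genes around CDKN2A and CDKN2B, which held 1 read in all libraries together, beside MTAP with 3633 to 5421 reads per library.

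MTAP, the neighbour of the silent stretch, was expressed in every library and was higher in the TNF-α group. Its level was 7.63, 8.30 and 7.74 FPKM with water and 11.5, 11.9 and 11.7 FPKM with TNF-α (7.89 ± 0.361 and 11.7 ± 0.185, SD, n = 3), from 3633 to 5421 reads. The groups did not overlap, the 3 TNF-α libraries lay close together, and the ratio of the means was 1.49. The gene spans chromosome 9, 21802543 to 21937651, on the plus strand, with 14617 bases of merged exons. Of these exon bases, 9.58% are shared with other annotated genes, and whether the authors counted by strand is not given in the sources used here. The RefSeq promoter table (GRCh38.p14) was searched because MTAP and CDKN1A were the 2 of the 8 genes without overlap between the groups. The 250 bases before the RefSeq start of MTAP (position 21802636, plus strand) held 1 NF-κB consensus, 72 bases before the start, and 2 GC boxes (GGGCGG, searched on both strands). This NF-κB consensus, at 21802564 to 21802573, lay inside the GENCODE exon of MTAP, which starts at 21802543. The first sequence below is the portion of this window upstream of the GENCODE exon, chr9:21802386-21802542, with the GC box in capitals, and the next is chr9:21802554-21802583, with the NF-κB consensus in capitals.
MTAP upstream: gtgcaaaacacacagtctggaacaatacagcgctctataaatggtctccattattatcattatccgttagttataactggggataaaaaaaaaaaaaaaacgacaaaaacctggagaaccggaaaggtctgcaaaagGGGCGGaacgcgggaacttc
MTAP NF-κB consensus: ggggtggcggGGGAGATCCCacacaagcag
Of 35116 such windows of 250 bases, 9.96% held the NF-κB consensus and 42.6% a GC box. A match of letters is a description of the window and not evidence of binding.

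The difference in MTAP did not pass the test across all genes. In limma on log2(FPKM + 1), its log2 fold change was 0.52 (SE 0.11, 95% confidence interval 0.25 to 0.79) with an adjusted p of 0.130, and the exact two-sided permutation test gave p = 0.1, the smallest that 3 against 3 libraries allow. Of all 12136 genes tested, 1.01% passed the threshold of an adjusted p under 0.05 (0.717% higher and 0.297% lower), 30.1% had groups that did not overlap, and 14.8% were higher in every TNF-α library than in any NC library. Relative to the NC mean, MTAP was higher by 0.50, 0.54 and 0.52 on the log2 scale in TNF-α replicates 1, 2 and 3. In FPKM the ratio was as large in replicate 1, the library that resembled the NC libraries in composition, as in the others. This evenness depends on the scale, since the scaling raised all FPKM of TNF-α replicates 2 and 3. The reads of MTAP were 4030, 3980 and 3633 with water and 5421, 4513 and 4157 with TNF-α. After correction of every library for GC content and gene length, the ratios were 0.45, 1.32 and 1.25. Without TNF-α replicates 2 and 3 the log2 fold change was 0.50 (adjusted p = 0.0226; 6.03% of all genes passed), a fit in which the remaining library is assumed to vary like the NC libraries. With TPM scaling the value for MTAP was 0.07, while the median of all genes moved to -0.42, and with limma-voom it was 0.31 beside a median of -0.21.

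Around MTAP, a list of 15 genes of methionine salvage, polyamine synthesis and the MAT2A-PRMT5 axis was examined, and all 15 were tested. None passed the threshold. At an unadjusted p under 0.05, 3 were higher and 1 lower, against 12.3% and 11.9% of all genes, and the median log2 fold change was 0.24 beside 0.04 over all genes. The median was -0.00, 0.37 and 0.37 in TNF-α replicates 1 to 3. SAT1, which acetylates spermidine and spermine, had the smallest p of the list. Its level was 12.2, 12.5 and 12.6 FPKM with water and 21.9, 37.3 and 36.8 FPKM with TNF-α, with a log2 fold change of 1.26 (SE 0.23, adjusted p = 0.0864). All 3 TNF-α libraries were above the NC libraries for SAT1, as for MTAP. Groups did not overlap for 4 genes that were higher and 1 that was lower (14.8% and 15.3% of all genes). The lower one was MRI1, named after its values were seen, at 6.85 ± 0.622 and 4.27 ± 0.651 FPKM (log2 fold change -0.58, limma adjusted p = 0.163). The median of the list was -0.14 with quantile normalization and -0.10 with TPM, beside 0.01 and -0.42 for all genes.

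RB1 was low in TNF-α replicates 2 and 3 and not in replicate 1. Its level was 15.4, 17.2 and 15.3 FPKM with water and 16.5, 4.37 and 5.02 FPKM with TNF-α (15.98 ± 1.03 and 8.64 ± 6.84, SD, n = 3). The groups overlapped, and the spread within the TNF-α group was several times that within the NC group. The log2 fold change was -1.04 (SE 0.45, 95% confidence interval -2.12 to 0.05, adjusted p = 0.195), and the exact permutation p was 0.3. Relative to the NC mean, the log2 ratios were 0.05, -1.66 and -1.49, and after correction for GC content and length they were 0.02, -1.09 and -0.998. The direction rested on replicates 2 and 3, since without them the log2 fold change was 0.05. Without TNF-α replicate 1 it was -1.58 (adjusted p = 1.05e-05), a setting under which 79.4% of all genes tested passed. RB1 spans chromosome 13, 48303726 to 48599436, on the plus strand, and shares no exon base with another annotated gene.

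Among 19 genes of the RB pathway (pocket proteins, D and E cyclins with their kinases, and E2F and DP factors), 18 were tested and none passed. CCND2, a D cyclin, was not tested. At an unadjusted p under 0.05, 1 was higher and 3 were lower (12.3% and 11.9% of all genes). Groups did not overlap for 3 in each direction (14.8% and 15.3% of all genes), and the median log2 fold change was -0.13. RBL2, which encodes the RB relative p130, was at 7.82, 7.89 and 7.47 FPKM with water and 6.78, 1.40 and 1.54 FPKM with TNF-α (log2 fold change -1.27, adjusted p = 0.195). As with RB1, the low values were those of TNF-α replicates 2 and 3, although replicate 1 was also below the NC range. TFDP2, a dimerization partner of E2F factors, went from 2.66 ± 0.0593 to 1.86 ± 0.164 FPKM, with all 3 TNF-α libraries below the NC libraries (log2 fold change -0.35, adjusted p = 0.195).

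Of the 8 CDK inhibitor genes, 4 were tested. CDKN2B and CDKN2C, which encodes the INK4 protein p18, were at 0 in all libraries, CDKN2A had 1 read, and CDKN1C, encoding p57, had 8 to 28 reads per library. The transcripts read in number were those of CDKN1A, CDKN1B, CDKN2D and CDKN3. CDKN1B, encoding p27, went from 16.2 ± 0.939 to 12.3 ± 2.59 FPKM without overlap (log2 fold change -0.40, adjusted p = 0.195). Of the INK4 family, CDKN2D alone had a level above 1 FPKM, at 20.2 to 22.2 FPKM with water and 18.6, 38.9 and 35.6 FPKM with TNF-α (log2 fold change 0.48, adjusted p = 0.239). None of the 4 passed, and 1 had an unadjusted p under 0.05, in the higher direction (12.3% of all genes). Their median log2 fold change was 0.40 beside 0.04 over all genes. It was -0.13, 0.75 and 0.61 in TNF-α replicates 1 to 3, and -0.01 after correction for GC content and length.

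CDKN1A was the most abundant of the 8 genes and the one with the largest difference between the group means. Its level was 30.5, 29.9 and 30.6 FPKM with water and 45.7, 88.9 and 81.1 FPKM with TNF-α (30.3 ± 0.391 and 71.9 ± 23.0, SD, n = 3). All 3 TNF-α libraries were above all NC libraries, and replicates 2 and 3 were well above replicate 1. The mean was 2.37-fold higher. CDKN1A spans chromosome 6, 36676460 to 36687339, on the plus strand. Of its exon bases, 4.79% lie under the antisense RNA DINOL, whose reads could not be separated here. In the RefSeq promoter table, the 250 bases before its start (position 36678714, plus strand) held no NF-κB consensus and 4 GC boxes, the last pair sharing 1 base. The stretch chr6:36678464-36678657, which holds no exon base of CDKN1A, is given with its GC boxes in capitals, for comparison with MTAP. Exons of other genes were not checked in it.
CDKN1A upstream: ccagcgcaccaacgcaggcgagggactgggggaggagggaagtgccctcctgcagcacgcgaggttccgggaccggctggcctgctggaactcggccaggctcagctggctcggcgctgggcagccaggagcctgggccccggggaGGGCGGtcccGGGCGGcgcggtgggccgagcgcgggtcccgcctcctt
The absence of the NF-κB letters applies to this window only.

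In limma the log2 fold change of CDKN1A was 1.16 (SE 0.27, 95% confidence interval 0.52 to 1.80) with an adjusted p of 0.146, and the exact permutation test gave its smallest possible p of 0.1. Relative to the NC mean, the log2 ratios were 0.58, 1.52 and 1.39 in TNF-α replicates 1 to 3. After correction for GC content and length they were 0.57, 0.64 and 0.65, which brought the 3 libraries together, and the corrected log2 fold change was 0.62 (adjusted p = 0.0273), where 2.04% of all genes passed. With TNF-α replicates 2 and 3 left out it was 0.58 (adjusted p = 0.00821). TPM scaling gave 0.68 and limma-voom 0.92 for CDKN1A, on the same shifted medians. The direction was the same under all 20 alternatives and the call was made under 4 of them, with an adjusted p between 9.46e-06 and 0.479. MTAP likewise kept its direction under all 20 and was called under 2 (0.000258 to 0.819).

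MDM2, the other p53 target of the 8 and the inhibitor of p53, had group means in the opposite order to CDKN1A. Its level was 7.73, 6.99 and 6.69 FPKM with water and 7.12, 4.74 and 5.26 FPKM with TNF-α (7.14 ± 0.534 and 5.71 ± 1.25, SD, n = 3). Replicate 1 lay within the NC range and replicates 2 and 3 below it. The log2 fold change was -0.29 (SE 0.17, 95% confidence interval -0.69 to 0.11, adjusted p = 0.224), and the exact permutation p was 0.3. The sign turned with correction for gene length (0.10) and for GC content and length (0.18). MDM2 spans chromosome 12, 68808176 to 68850686, on the plus strand, and has 13284 exon bases, of which 9.21% are shared with other genes. Whether CDKN1A and MDM2 differed in their response was not tested.

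**Figure D2:**
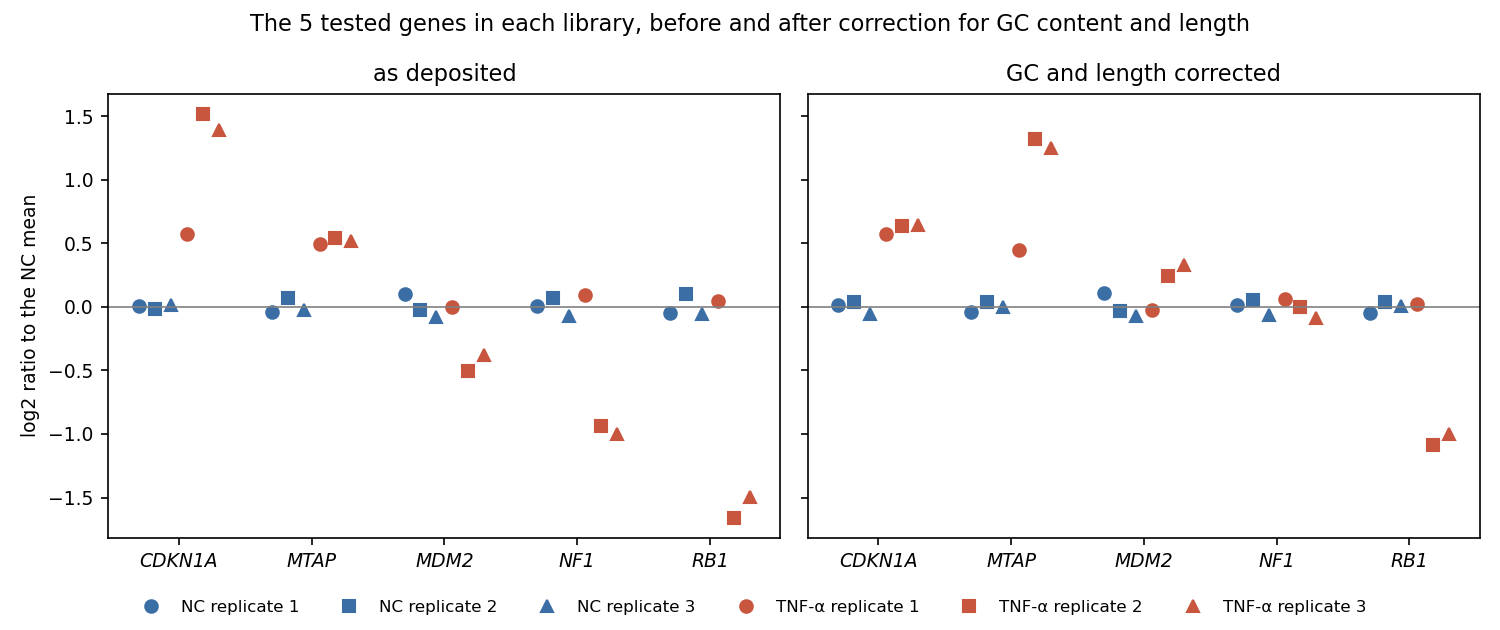
Log2 ratio of each library to the NC mean, on log2(FPKM + 1), for the 5 genes that were tested, as deposited (left) and after correction for GC content and gene length (right), with 1 point per library. MTAP and CDKN1A lie above 0 in all 3 TNF-α libraries on both sides, whereas RB1 is near 0 in replicate 1 and at -1.09 and -0.998 in replicates 2 and 3 after correction, and NF1 is near 0 in all 3.

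Other targets of p53 were spread in both directions. Of 32 listed targets, 27 were tested, 17 had a log2 fold change above 0 and 10 below. Of all 12136 genes tested, 6432 were above 0. The median of the list was 0.27 beside 0.04 over all genes, and it was -0.00, 0.53 and 0.40 in TNF-α replicates 1 to 3. Groups did not overlap for 8 targets that were higher and 4 that were lower, of 27, against 14.8% and 15.3% of all genes. At an unadjusted p under 0.05, 7 were higher and 4 lower, against 12.3% and 11.9% of all genes. A single target passed the test, TNFRSF10B, which encodes the death receptor DR5 for TRAIL. It rose from 37.7 ± 1.48 to 73.9 ± 4.12 FPKM, and its TNF-α libraries were at 76.6, 76.0 and 69.2 FPKM (log2 fold change 0.95, SE 0.13, adjusted p = 0.0384). In FPKM the increase was of like size in replicate 1 and in replicates 2 and 3. The scaling raised all FPKM of replicates 2 and 3, however, so this likeness depends on the scale. The reads of TNFRSF10B were 7002, 6146 and 6507 with water and 12703, 10156 and 8666 with TNF-α. Under the 20 alternatives its log2 fold change lay between 0.46 and 1.00. Its call was kept under 10 of 20 alternatives (adjusted p between 2.97e-05 and 0.363) and was lost without any 1 library other than TNF-α replicate 1. TNFRSF10B has also been described as responsive to NF-κB, and which factor acted on it here was not tested.

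Just outside the threshold, and named here after their values were seen, stood BBC3, GADD45A and PLK3. BBC3, encoding the BH3-only protein PUMA, was at 1.27, 1.26 and 1.66 FPKM with water and 3.33, 4.93 and 5.47 FPKM with TNF-α (log2 fold change 1.20, adjusted p = 0.0512). GADD45A, a stress-response gene, was at 45.3 ± 3.49 and 77.7 ± 3.57 FPKM (log2 fold change 0.77, adjusted p = 0.0892). PLK3, a polo-like kinase, was at 4.39 ± 0.243 and 12.1 ± 3.45 FPKM (log2 fold change 1.25, adjusted p = 0.0847). In all 3, every TNF-α library was above every NC library. The 4 targets with every TNF-α library below every NC library were PPM1D, ZMAT3, CCNG1 and CYFIP2, also named after their values were seen. Their log2 fold changes were -0.43, -0.68, -0.39 and -0.28 (adjusted p of 0.195 to 0.197). The 5 targets that were not tested were BTG2, SPATA18, TIGAR, EDA2R and PERP, and PERP was at 0 in all libraries. Under TPM the median of the list turned to -0.16, beside -0.42 for all genes.

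**Figure D3:**
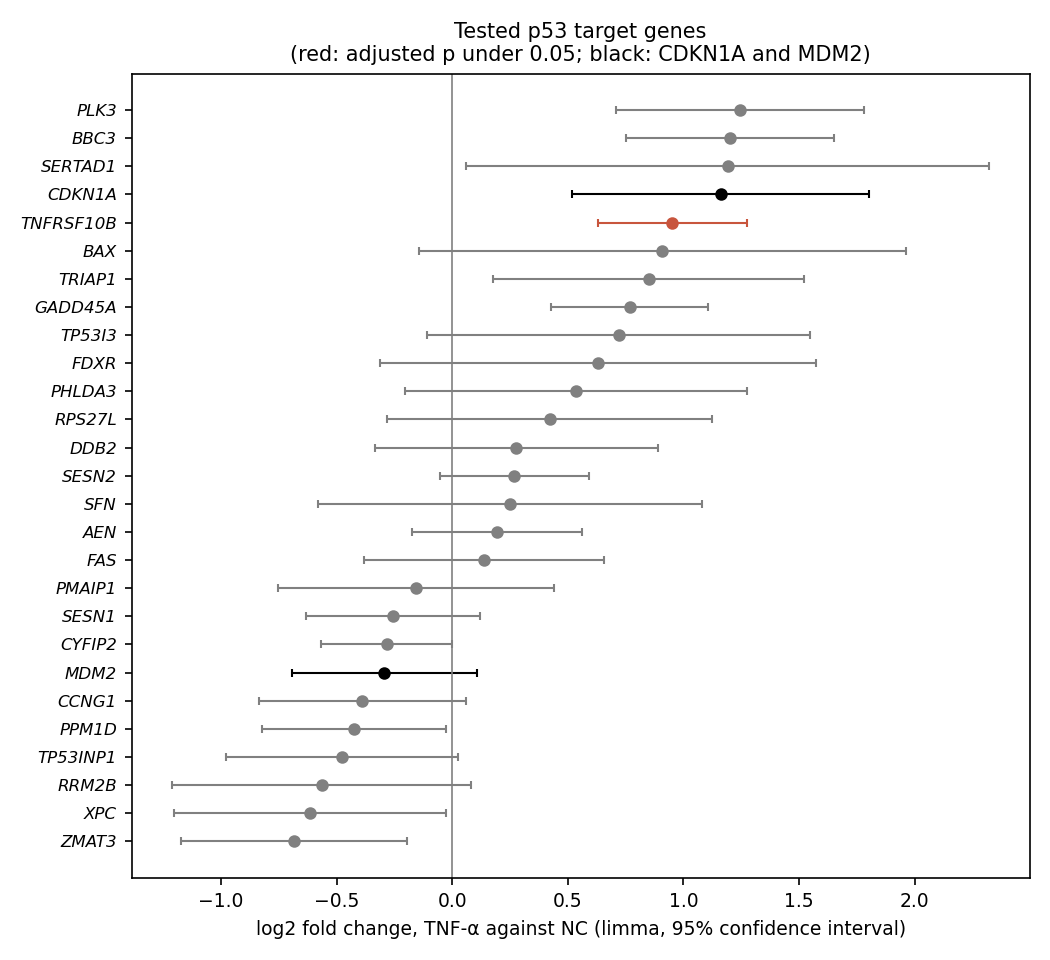
Log2 fold change (TNF-α against NC, limma, with 95% confidence interval) of the 27 tested p53 targets, ordered by size. TNFRSF10B (red) passed an adjusted p of 0.05, and CDKN1A and MDM2 (black) lie on opposite sides of 0.

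A list of 13 kinases, ligases and binding partners that control p53, MDM2 included, was tested in full. None passed, 4 had an unadjusted p under 0.05, all in the lower direction (11.9% of all genes), and the median log2 fold change was -0.18. HIPK2, a kinase of p53, was at 17.2, 17.0 and 17.4 FPKM with water and 14.4, 2.89 and 3.36 FPKM with TNF-α (log2 fold change -1.51, adjusted p = 0.195). TP53BP1, a DNA damage response scaffold, was at 7.05 ± 0.577 FPKM with water and at 6.44, 2.17 and 2.92 FPKM with TNF-α (log2 fold change -0.83, adjusted p = 0.195). In both genes replicates 2 and 3 were far below replicate 1. With correction for GC content and length the median of the list was 0.03.

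NF1 followed the pattern of RB1. Its level was 2.29, 2.43 and 2.12 FPKM with water and 2.49, 0.710 and 0.642 FPKM with TNF-α (2.28 ± 0.158 and 1.28 ± 1.05, SD, n = 3). TNF-α replicate 1 was the highest of the 6 libraries and replicates 2 and 3 the lowest. The log2 fold change was -0.62 (SE 0.30, 95% confidence interval -1.35 to 0.12, adjusted p = 0.198), and the exact permutation p was 0.4. NF1 is the longest of the 8 genes, with 27130 exon bases (chromosome 17, 31094927 to 31382116, plus strand). Its log2 ratios to the NC mean were 0.09, -0.939 and -0.998, while the median over the 2369 tested genes longer than 8 kb was 0.00, -0.56 and -0.52. After correction for GC content and length they were 0.06, -0.00 and -0.09, and without TNF-α replicates 2 and 3 the log2 fold change was 0.09. Without replicate 1 it was -0.97 (adjusted p = 6.47e-05).

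Of 15 inhibitors of RAS signalling, NF1 among them, 14 were tested and none passed. At an unadjusted p under 0.05, 1 was higher and 3 were lower, against 12.3% and 11.9% of all genes. The median log2 fold change was -0.38 beside 0.04 over all genes, with 0.11, -0.77 and -0.43 in TNF-α replicates 1 to 3. RASAL1, a RAS GTPase-activating protein, was at 0 in all libraries. SPRY1, a Sprouty feedback inhibitor, was at 2.73, 2.40 and 2.83 FPKM with water and 1.77, 0.789 and 1.12 FPKM with TNF-α (log2 fold change -0.73, adjusted p = 0.166). DAB2IP, a RAS GTPase-activating protein, was at 6.47 ± 0.208 and 4.84 ± 0.536 FPKM (log2 fold change -0.36, adjusted p = 0.195). Unlike NF1, both were below the NC range in TNF-α replicate 1 as well.

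TERT was transcribed at a low level without a detectable difference between the groups. It had 35, 28 and 31 reads with water and 24, 21 and 32 with TNF-α, or 0.210, 0.186 and 0.210 against 0.162, 0.176 and 0.286 FPKM (0.202 ± 0.0142 and 0.208 ± 0.0680, SD, n = 3). The groups overlapped and the exact permutation p was 1. TERT was below the filter on low values and had no test across genes, and at 21 to 35 reads a modest difference could not be seen. It spans chromosome 5, 1253147 to 1295069, on the minus strand. Of 17 telomerase and shelterin genes, 14 were tested and none passed. At an unadjusted p under 0.05, 1 was higher and none lower, against 12.3% and 11.9% of all genes. Their median log2 fold change was 0.31 beside 0.04 over all genes, and it was -0.00, 0.44 and 0.47 in TNF-α replicates 1 to 3. TERC, the RNA template, had 1 read in total, in libraries made from poly(A)-selected RNA. GAR1, a protein of the telomerase ribonucleoprotein, was at 12.03 ± 0.693 and 24.4 ± 10.1 FPKM, and WRAP53, which guides telomerase to Cajal bodies, at 8.67 ± 0.135 and 18.2 ± 8.36 FPKM (log2 fold change 0.87 and adjusted p = 0.195 for each). In TNF-α replicate 1 GAR1 was at 13.0 and WRAP53 at 8.64 FPKM, close to the NC mean.

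Side by side, 5 of the 8 genes were tested and 3 were not. None of the 5 passed, 2 (MTAP and CDKN1A) had an unadjusted p under 0.05 against 24.2% of all genes, and limma-voom on the recovered reads, which called 0.634% of all genes, also called 0 of them. The order of the FPKM levels in the NC group was CDKN1A, RB1, MTAP, MDM2, NF1, TERT, CDKN2A and CDKN2B. MTAP and MDM2 overlapped in range, the other expressed neighbours did not, and CDKN2A with 1 read could not be told from CDKN2B. In the TNF-α group MTAP stood above RB1, but the ranges of MTAP and RB1 overlapped, as did those of RB1 and MDM2.

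**Figure D4:**
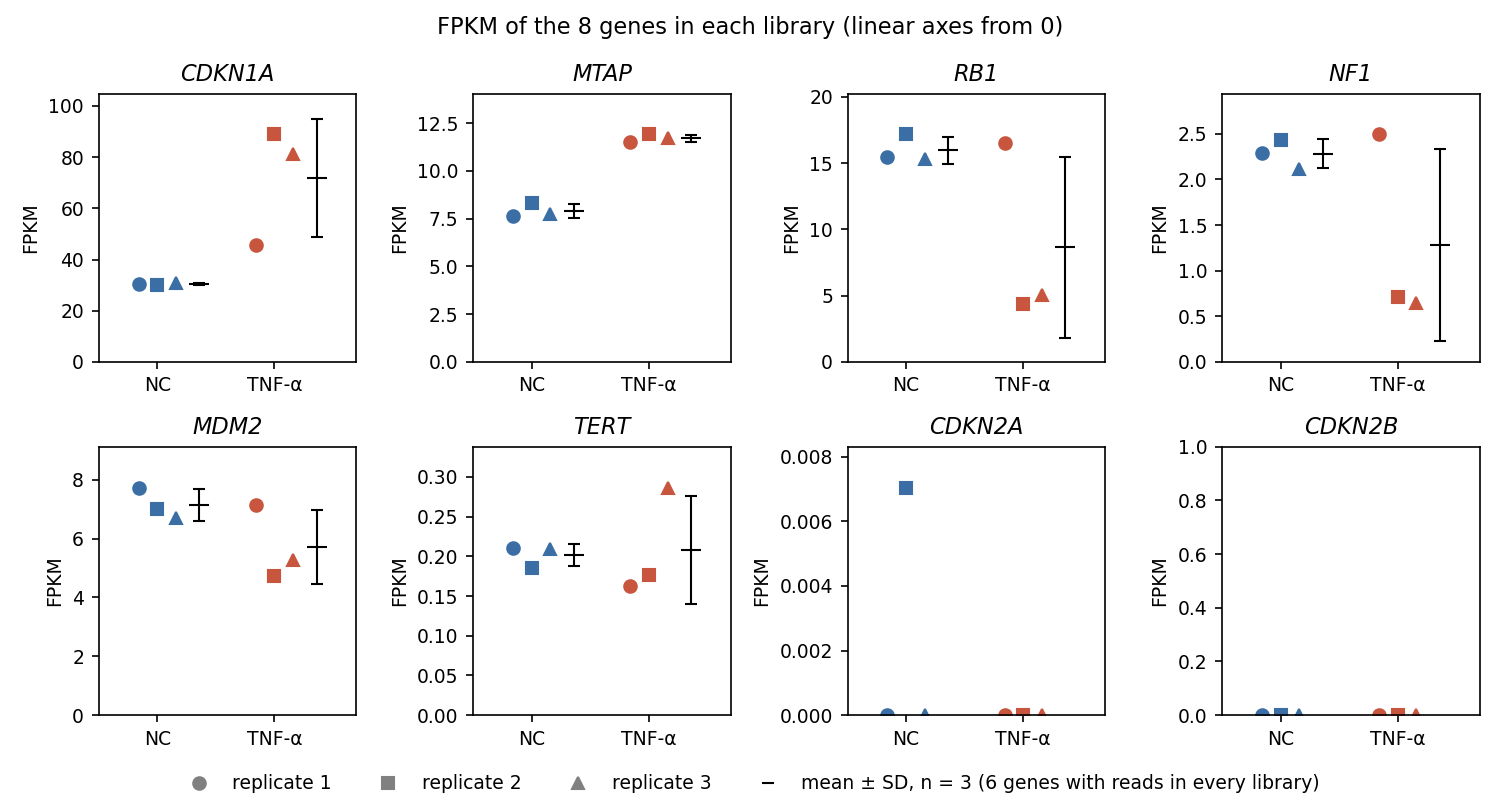
FPKM of the 8 genes in each of the 3 NC (blue) and 3 TNF-α (red) libraries on linear axes from 0, with the mean and SD in black for the 6 genes with reads in every library. CDKN1A and MTAP separate the groups, TNF-α replicate 1 lies with or near the NC libraries for RB1, NF1 and MDM2, and CDKN2A and CDKN2B are at or near 0.

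The genes whose values over the 6 libraries were closest to each tested gene were found by the root mean square difference of log2(FPKM + 1) after subtraction of the NC mean, among 10439 protein-coding genes. For MTAP they were SH3RF2 (0.0369) and CFLAR (0.0438), which encodes the caspase-8 inhibitor c-FLIP. CFLAR had log2 ratios of 0.55, 0.49 and 0.52 in the TNF-α libraries, about as even on this FPKM scale as those of MTAP. For CDKN1A they were SMOX (0.0460), the spermine oxidase, and TICAM1 (0.0571), an adaptor of Toll-like receptors. For NF1 they were PIK3CB (0.0123) and ZNF148 (0.0284), for RB1 ASAP1 (0.0370) and PKN2 (0.0425), and for MDM2 BHLHB9 (0.0167) and SEPSECS (0.0196). These 6 genes, like those they resembled, were near the NC mean in TNF-α replicate 1 and below it in replicates 2 and 3. Likeness over 6 libraries is a description of these values only.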

How the data were processed

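Poly(A)-selected RNA of U251 cells was sequenced in 3 NC and 3 TNF-α libraries, which the labels describe as independent biological replicates. The authors deposited FPKM per gene and library, neither pooled nor log-transformed, with the gene lengths. The submitters' processing notes name HISAT2 2.0.5, StringTie 1.3.3b, featureCounts 1.5.0, DESeq2, edgeR and GATK 3.7 without roles, and the use of strand is not given in the sources used here. All 58735 identifiers, positions and lengths matched GENCODE release 29. A further 6 columns of per-sample values match no sample described here and were not used.

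Multiplied by gene length, the FPKM of each library were whole multiples of a common step for 100% of values (tolerance 0.01), which gave reads. The scaled total inside the FPKM was 0.925 to 0.959 of the reads in 4 libraries and 0.693 and 0.759 in TNF-α replicates 2 and 3, and this raises all FPKM of these 2 alike. Limits from 3 reads cover counting error only.

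The 12136 genes (10440 protein-coding) that reached an FPKM of 1 in 3 or more of the 6 libraries were tested as log2(FPKM + 1), which understates changes of low genes, with limma 3.58.1 in R 4.3.3 (eBayes with trend). The two-sided p-values were Benjamini-Hochberg adjusted over these genes, with a threshold of 0.05. Single genes were compared by an exact two-sided permutation test. The 20 alternatives changed the pseudocount, filter, scaling, trend, replicate number, libraries or biotypes, used limma-voom, or corrected for length and GC content with natural splines of 5 degrees of freedom (5 genes had no GC value). The fit was tested on simulated reads in which the libraries had the same composition apart from the genes changed on purpose. That test did not cover the uneven composition of the TNF-α libraries. Figures were drawn with matplotlib 3.10.9.

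The 8 genes, the 7 pathway lists and the tests were chosen with earlier results of these data known. Genes named were the 8 genes, the treatment checks, in each list those past the threshold or else the 2 with the smallest p, the 9p21 genes with 3 or more reads in a library, and the 2 most similar protein-coding genes. Exceptions are stated.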

Additional observations from a re-analysis of the deposited data

How the results depend on the processing

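For the 8 genes, the direction of MTAP and CDKN1A was the same under all 20 alternatives, that of RB1 under 19, of NF1 under 18 of 19 (it could not be tested at FPKM of at least 5) and of MDM2 under 18. Without TNF-α replicates 2 and 3, RB1 (0.0476) and NF1 (0.0916) turned sign, and MTAP (0.50) and CDKN1A (0.58) passed. MDM2 turned sign with correction for length (0.10) and for GC content and length (0.18). Direction was counted by sign alone, and some values were near 0. Without TNF-α replicates 2 and 3, MDM2 was at -0.000159. NF1 was at -0.00777 with correction for length and at -0.0103 with that for GC content and length. CDKN1A also passed with quantile normalization (0.74, adjusted p = 0.0478) and with GC and length correction (0.62). The number of the 8 genes called was 1 with quantile normalization (1.52% of all genes called), 2 without TNF-α replicates 2 and 3 (6.03%), and 1 with GC and length correction (2.04%). The cause of these shifts was not tested.

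The p53 target count of 1 became 0 with every gene above FPKM 0, with TPM, with limma-voom and with the replicate block, 3 with quantile normalization and with length correction, 6 without TNF-α replicates 2 and 3, and 2 with GC and length correction and with protein-coding genes only. Length correction called 1.26% of all genes and the protein-coding fit 1.25%. The CDK inhibitor count of 0 became 1 with quantile normalization, with GC and length correction and without TNF-α replicates 2 and 3. Without those replicates it was 2 for the RB list, 3 for the RAS list and 2 for methionine salvage, and the last was 1 with quantile normalization, length correction, and GC and length correction.

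Leaving out 1 library at a time, log2 fold changes ranged from 0.50 to 0.55 for MTAP, -0.97 to -0.42 for NF1, -1.58 to -0.72 for RB1, -0.44 to -0.19 for MDM2 and 0.98 to 1.45 for CDKN1A. Counts ranged from 0 to 5 for the tested genes of the 8, 0 to 25 for p53 targets, 0 to 4 for CDK inhibitors, 0 to 15 for the RB list, 0 to 13 for the RAS list, 0 to 10 for p53 control, 0 to 12 for telomerase and 0 to 14 for methionine salvage. Each upper end was reached without TNF-α replicate 1, when 9630 of 12136 genes passed (79.4%). With the replicate number as a block, 24 genes passed (0.198%), 0 of the 8 among them, with adjusted p of 0.213 for MTAP, CDKN1A, RB1 and NF1 and 0.287 for MDM2. Correlations of deviations between same-numbered libraries were -0.01, -0.18 and 0.12, so the numbers were not taken as pairs.

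The 3 libraries per group and the uneven composition of the TNF-α group limited these comparisons. At 21 to 35 reads per library TERT had few counts, and for CDKN2A and CDKN2B only an upper limit was available.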

Other observations

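CDKN2C, the INK4 gene on chromosome 1 (50960745 to 50974633), was at 0 reads in all 6 libraries, and its neighbours were examined after this had been seen. FAF1, the protein-coding gene beside it (50437028 to 50960263), had 6 reads in total, 4 in TNF-α replicate 2 and 2 in TNF-α replicate 3. C1orf185 on the other side had 0 reads, and LINC01562 had 2. The next gene, RNF11 (51236271 to 51273455), had 1890 to 4327 reads per library, and EPS15 had 706 to 2261. CDKN2C and the adjacent FAF1 thus both had low counts, while RNF11 did not. Unread genes were common, since 31662 of all 58735 genes had an FPKM above 0 in at least 1 library. Whether the low counts of CDKN2C and FAF1 are related was not tested. These are values of RNA, and no copy number was measured.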
